A study of Mus musculus with 4 samples.

Results

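The mouse genes named Zfp followed by a number encode zinc finger proteins. They were taken from the deposited expression table of 14519 genes by symbol alone, as entries written Zfp, digits and optional further letters or digits, which gave 324 genes. Of these, 200 reached 5 RPM (a gene's reads relative to all reads of its library) in at least 2 libraries and were tested, and 124 lay below that filter.

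The study profiled RNA from 2 cell populations of the mouse colonic crypt. Reg4+ DCS (deep crypt secretory) cells, mucus-making cells that lie among the stem cells, were sorted by a Reg4-dsRed reporter, and Lgr5+ cells, the crypt base stem cell population, by an Lgr5-GFP reporter. Both came from colonic epithelium, and each population has 2 libraries, from 2 rounds of sorting and library preparation that the design text calls biological replicates. Libraries were made by CEL-seq, in which barcoded RNA is amplified linearly and read from its 3′ end. The sources used here do not give the strain, age or number of the mice, the design of the reporter alleles, or whether a replicate number marks a shared round. Cells sorted by a reporter are defined by that reporter, so each group is only as pure as its gate.

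Reg4 stood at 6187 and 5899 RPM in Reg4+ DCS and 796 and 363 RPM in Lgr5+ libraries, and Lgr5 stood at 0.989 and 3.13 RPM against 46.5 and 48.8 RPM, as the labels have them. The libraries hold 5205723 and 7955340 recovered reads (Lgr5+ replicates 1 and 2), while the Reg4+ DCS values decode as means over 2 parts that were scaled on their own, with 5523304 and 1890960 reads in replicate 1 and 3004289 and 2443971 in replicate 2. Summed levels of marker lists differed between the populations for some cell types and overlapped for others. The 8 goblet and DCS markers, Reg4 among them, summed to 196470 and 129549 RPM in Reg4+ DCS and 6508 and 2545 RPM in Lgr5+ libraries. How far this load lowers the RPM of other genes was not tested. The 5 stem cell markers in the table, of 6 listed and Lgr5 among them, summed to 27.6 and 47.0 RPM against 544 and 655 RPM. The summed level of 7 proliferation markers was 380 and 436 RPM in Reg4+ DCS and 1613 and 1597 RPM in Lgr5+ libraries. That of 5 tuft cell markers was 2.30 and 1.98 RPM against 832 and 249.5 RPM, with Pou2f3 and Alox5ap at 0 in both Reg4+ DCS libraries. That of the 4 leukocyte markers in the table, of 8 listed, was 0.0905 and 0.166 RPM against 44.8 and 11.9 RPM. Ptprc, Cd3e and Cd79a were at 0 in both Reg4+ DCS libraries. The Reg4+ DCS columns each list 1645 genes at 0, and the Lgr5+ columns 310 and 308. Marker zeros are given as listed, and whether those of the 2 Reg4+ DCS columns arose independently was not tested. Enteroendocrine markers (6 genes) summed to 17.2 and 26.01 RPM against 71.8 and 30.5 RPM, and the 3 stroma markers in the table, of 6 listed, to 0.264 and 0.614 RPM against 5.19 and 4.40 RPM. Colonocyte markers (5 genes) overlapped, at 417 and 538 RPM against 859 and 189 RPM. The part of division or of RNA from these other cell types in the values of the Zfp genes was not tested. In sorted bulk RNA, fewer cells of a type and less RNA per cell cannot be told apart.

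A zinc finger is a short fold held together by cysteines and histidines around a zinc ion. In the C2H2 type, arrays of fingers read DNA, and many such proteins carry a KRAB box at the amino end, which recruits the scaffold Trim28 and through it the histone methyltransferase Setdb1 to silence retroelements and to keep imprinted genes methylated. Other Zfp proteins act on RNA: the CCCH proteins of the Zfp36 family bind AU-rich elements in the 3′ ends of messages and bring in the CCR4-NOT deadenylase, which shortens the poly(A) tail and starts decay.

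The coding sequences of such elements show what the symbol groups together. Of the 324 genes, 319 matched GENCODE M21 (GRCm38, the assembly also called mm10) by symbol and 5 by an older name, 321 as protein-coding genes and 3 as pseudogenes. The first CCCH finger of the 3 Zfp36 family genes is shown because these close relatives lay on opposite sides of the comparison. Capitals mark the codons of the 3 cysteines and the histidine, and each stretch lies in exon 2 of 2 on the minus strand (chr7:28378158-28378217, chr12:80110189-80110248 and chr17:84186668-84186727).
Zfp36: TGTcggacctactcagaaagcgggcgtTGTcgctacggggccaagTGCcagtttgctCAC
Zfp36l1: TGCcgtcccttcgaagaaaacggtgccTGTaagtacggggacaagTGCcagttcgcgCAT
Zfp36l2: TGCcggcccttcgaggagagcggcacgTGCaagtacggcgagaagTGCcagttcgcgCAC
Over these 60 bases Zfp36l1 and Zfp36l2 shared 49 bases and 17 of 20 residues, Zfp36 and Zfp36l1 42 bases and 13 residues, and Zfp36 and Zfp36l2 40 bases and 14 residues.

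A C2H2 finger of Zfp467, which was higher in Reg4+ DCS cells, and of Zfp13, which was higher in Lgr5+ cells, is shown for the spacing of the residues that bind zinc. Capitals mark the codons of the 2 cysteines and 2 histidines. Both lie in the last exon of their gene on the minus strand (chr6:48439171-48439233, exon 5 of 5, and chr17:23576732-23576794, exon 6 of 6).
Zfp467: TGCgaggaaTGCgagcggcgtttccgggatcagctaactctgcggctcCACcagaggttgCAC
Zfp13: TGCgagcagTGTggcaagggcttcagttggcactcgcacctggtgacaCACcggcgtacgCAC
Over the whole stretches, marked codons included, 32 of 63 bases and 8 of 21 residues were shared.

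The KRAB boxes of the 3 KRAB genes with the largest called differences are shown as the feature that divides the family into its main classes. Capitals mark the codons whose residues matched 15 fixed KRAB residues, of which a gene needed 7 to be counted. Zfp13 matched 11 (chr17:23580131-23580220, minus strand, exon 5 of 6), Zfp599 all 15 (chr9:22258070-22258159, minus strand, exon 2 of 5) and Zfp282 11 (chr6:47890078-47890167, plus strand, exon 3 of 8).
Zfp13: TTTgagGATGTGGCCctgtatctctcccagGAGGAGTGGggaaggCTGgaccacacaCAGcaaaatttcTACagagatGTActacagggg
Zfp599: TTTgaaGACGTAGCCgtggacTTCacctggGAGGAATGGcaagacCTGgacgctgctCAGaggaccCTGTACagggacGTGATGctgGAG
Zfp282: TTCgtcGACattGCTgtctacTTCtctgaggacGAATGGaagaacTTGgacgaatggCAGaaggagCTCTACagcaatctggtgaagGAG
By this rule 183 genes carried a KRAB box and 138 other protein-coding genes did not. 6 genes fell 1 match short of the limit and 2 just met it. The proteins held 0 to 36 C2H2 fingers, with a median of 10 over 321 proteins, and 11 held none that the pattern found.

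Zfp genes were mostly higher in Lgr5+ than in Reg4+ DCS cells on the deposited scale, and so were genes at large. Of the 200 tested, 42 were called higher in Lgr5+ cells by limma (21%, where 26.9% of all 10183 tested genes were) and 3 higher in Reg4+ DCS cells (1.5%, where 7.18% of all were). A call is a Benjamini-Hochberg adjusted p under 0.05 over all tested genes. Both shares lay below those of all genes, and genes at large also had the larger count toward Lgr5+ cells. The median level was 11.98 RPM for the tested Zfp genes and 28.6 RPM for all tested genes, so fewer reads stand behind a typical Zfp test. The part of level in these shares was not tested. The median log2 fold change (Reg4+ DCS minus Lgr5+, from log2(RPM + 1), as for every log2 value here) was −0.55 for the tested Zfp genes and −0.47 for all tested genes. It was negative for 174 of the 200 and ranged from −2.67 to 1.25.

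The split between the directions depended on the scaling. Median-of-ratios scaling, which sets the typical gene level across libraries, moved the median of all genes by 0.49 to 0.02. With it, 11 Zfp genes were called higher in Lgr5+ cells (12.7% of all genes were) and 10 higher in Reg4+ DCS cells (15.6% of all), and the median of the Zfp genes was −0.08. The edgeR test on recovered reads gave 12 (13.4% of all) and 8 (13.7% of all). All 11 and all 12 were among the 42, the 3 were among the 10 and the 8, and 0 calls turned to the other direction. Counts on the RPM scale also rested on single libraries: without Reg4+ DCS replicate 1 they were 8 higher in Lgr5+ (10.6% of all genes were) and 3 higher in Reg4+ DCS cells (3.59% of all). Without Reg4+ DCS replicate 2 they were 36 and 0 (23% and 3.5% of all), without Lgr5+ replicate 1 they were 21 and 2 (17.3% and 7.58% of all) and without Lgr5+ replicate 2 they were 20 and 2 (16.8% and 5.97% of all). With 1 library left out, 1 population has a single library, which is assumed to vary like the other population's pair, so these p-values hold no spread of its own.

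Both Lgr5+ libraries lay above both Reg4+ DCS libraries for 127 of the 200 tested Zfp genes (63.5%, where 56.2% of all tested genes did), and below both for 14 (7.0%, where 16.1% did). A gene that reached the filter in both Lgr5+ libraries and in neither Reg4+ DCS library, or the reverse, is apart by the filter alone. The genes named below for the largest called differences were taken only where the groups did not overlap, so for them that trait is a condition of choice. The plot of fold change against level shows the family among all tested genes.

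**Figure D1:**
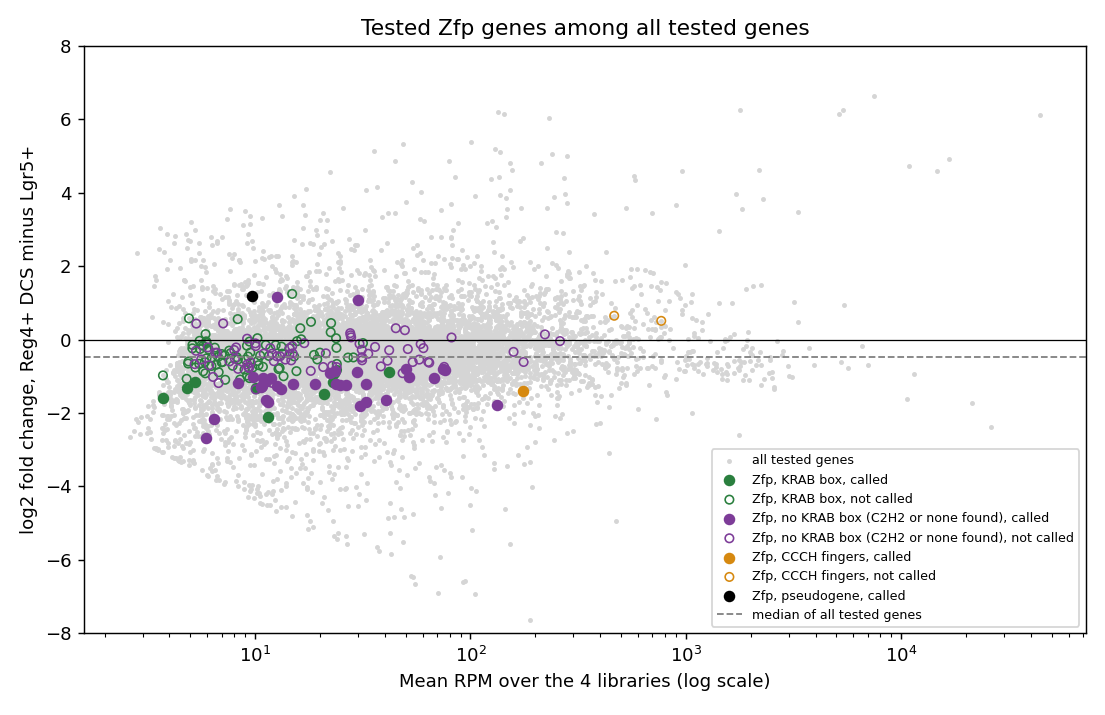
Log2 fold change (Reg4+ DCS minus Lgr5+, vertical axis) against mean RPM over the 4 libraries (horizontal axis, log scale) for 10183 tested genes (grey) and the 200 tested Zfp genes (coloured by class, filled where called by limma). The Zfp genes lie between −2.67 and 1.25 around the dashed median of all genes at −0.47, and the 3 CCCH genes are among the most abundant of them.

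Zfp703 and Zfp503, paralogous repressors of the NET family known from limb and brain development and, for Zfp703, from luminal breast cancer, were both higher in Lgr5+ cells. Zfp703 (chromosome 8, 26977325 to 26981461) stood at 49.5 and 68.7 RPM in Reg4+ DCS and 186 and 225 RPM in Lgr5+ libraries. The groups were apart by more than the spread within either, with means of 59.1 ± 13.6 and 206 ± 27.8 RPM (mean ± SD with n = 2 libraries, here and below), a 3.48-fold difference (log2 fold change −1.79, SE 0.25, limma adjusted p = 0.00176). Zfp503 (chromosome 14, 21983959 to 21989601) stood at 0.543 and 0.999 RPM against 15.6 and 6.54 RPM, 14.3-fold different by the means (log2 fold change −2.67, SE 0.45, adjusted p = 0.00361). Both Reg4+ DCS values of Zfp503 were low, at 6 reads each, while its Lgr5+ libraries differed between themselves, and its fold was 8.48 without Lgr5+ replicate 1. All 6 reads came from 1 part of each Reg4+ DCS column, the other part being at 0. Without the parts at 0 its log2 fold change was −2.16 (adjusted p = 0.00954).

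Zfp608, a large protein with a single found finger that is known to repress the Rag recombinase genes in thymocytes, stood at 0.898 and 2.76 RPM in Reg4+ DCS and 12.7 and 9.43 RPM in Lgr5+ libraries (log2 fold change −2.16, SE 0.42, limma adjusted p = 0.00672). Its groups did not overlap, and its fold of 6.04 was 3.9996 without Reg4+ DCS replicate 1 and 12.3 without Reg4+ DCS replicate 2. Its paralog Zfp609, known as a partner of the cohesin loader, was named only for that relation, after its values were seen. Zfp609 stood at 36.1 ± 4.52 against 64.1 ± 14.6 RPM (log2 fold change −0.80, adjusted p = 0.0494). It did not pass under median-of-ratios scaling (adjusted p = 0.408), by edgeR (0.369), and without Reg4+ DCS replicate 1 (0.194), Reg4+ DCS replicate 2 (0.0794) or Lgr5+ replicate 2 (0.266).

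Zfp13, a KRAB protein with 8 fingers (chromosome 17, 23575844 to 23599487), had the largest difference of the KRAB class. It stood at 2.14 and 5.72 RPM in Reg4+ DCS and 16.5 and 21.4 RPM in Lgr5+ libraries (log2 fold change −2.11, SE 0.42, limma adjusted p = 0.00745). Replicate 1 was the lower library in both populations, and the fold of 4.82 was 8.84 without Reg4+ DCS replicate 2. Zfp599, a KRAB protein with 10 fingers, stood at 0.884 and 1.89 RPM against 5.96 and 6.16 RPM (log2 fold change −1.60, adjusted p = 0.0136). Its Lgr5+ libraries were nearly level and its Reg4+ DCS libraries were low. Its fold of 4.36 was 6.85 without Reg4+ DCS replicate 2. Zfp599 was not called without Reg4+ DCS replicate 1 (adjusted p = 0.0917). Zfp282, a KRAB protein with 5 fingers, stood at 7.71 and 13.5 RPM against 24.97 and 36.96 RPM (log2 fold change −1.48, adjusted p = 0.0157). The groups of Zfp282 did not overlap, and without Reg4+ DCS replicate 1 its call was gone (0.0917).

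Zfp326, a subunit of the DBIRD complex that couples transcription elongation to splicing, had nearly level Lgr5+ libraries. It stood at 16.4 and 21.8 RPM in Reg4+ DCS and 60.7 and 62.5 RPM in Lgr5+ libraries, a 3.22-fold difference (log2 fold change −1.65, SE 0.26, adjusted p = 0.00302). Zfp428, with 1 finger, stood at 12.1 and 13.6 RPM against 58.4 and 38.1 RPM (log2 fold change −1.80, adjusted p = 0.00364). Zfp358, with 9 fingers, stood at 14.3 and 15.5 RPM against 44.6 and 56.8 RPM (log2 fold change −1.69, adjusted p = 0.00297). For Zfp326, Zfp428 and Zfp358 the Reg4+ DCS libraries lay close together and far below both Lgr5+ libraries. Zfp367, a C2H2 transcription factor with 2 fingers, stood at 5.26 and 4.61 RPM against 16.7 and 18.4 RPM (log2 fold change −1.64, adjusted p = 0.0055). Zfp462, known in pluripotent cells for its part in heterochromatin and with 33 fingers, stood at 3.14 and 6.88 RPM against 21.9 and 13.95 RPM (log2 fold change −1.70, adjusted p = 0.0159). Both pairs of groups were apart, but Zfp462 lost its call without Reg4+ DCS replicate 1 (adjusted p = 0.0937) and without Lgr5+ replicate 1 (0.0597), and its fold of 3.58 was 5.71 without Reg4+ DCS replicate 2.

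Zfp13, Zfp326, Zfp358, Zfp367, Zfp428 and Zfp703 were called higher in Lgr5+ cells in the fit on deposited RPM and in all 13 alternatives. Zfp503, Zfp608 and Zfp599 entered the test through the Lgr5+ libraries alone, since their Reg4+ DCS values lie below the filter. Without either Lgr5+ library these genes were not tested, so their calls could not be checked against the loss of one. They were among 6 called Zfp genes not tested without Lgr5+ replicate 1 and 6 not tested without Lgr5+ replicate 2. In these fits 181 and 182 Zfp genes were tested. The plot of RPM by library shows these genes beside the 3 called in the other direction.

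**Figure D2:**
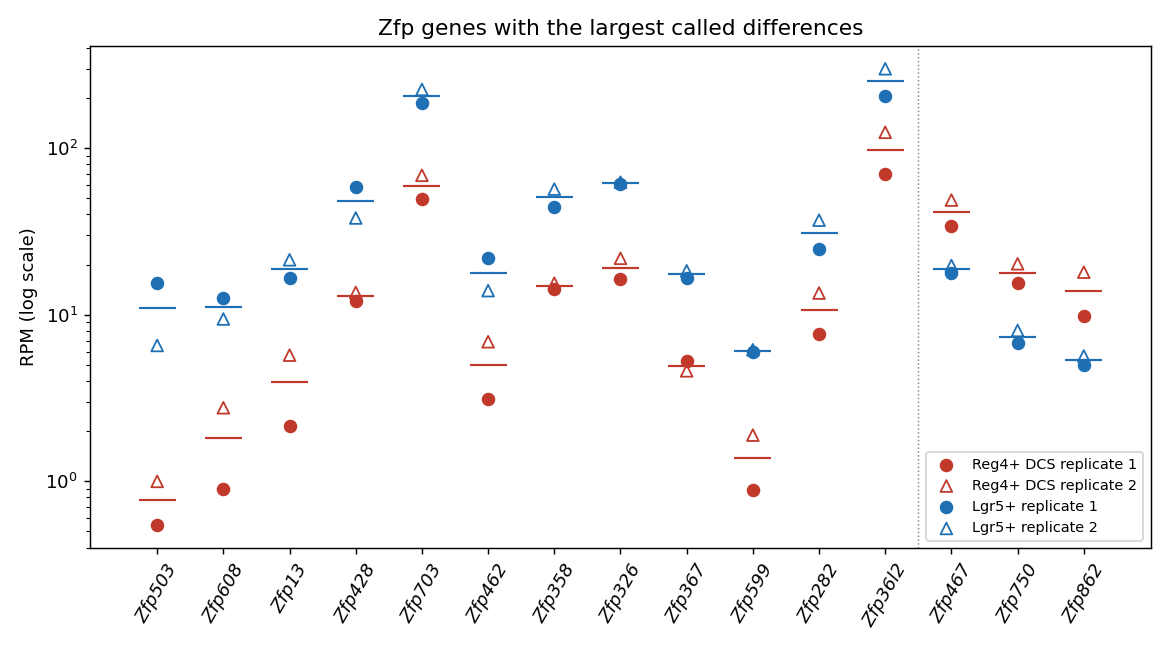
RPM (log scale) in each library for the 12 Zfp genes with the largest called differences toward Lgr5+ cells (left of the dotted line) and the 3 called toward Reg4+ DCS cells (right). Circles are replicate 1, triangles replicate 2 and bars the group means. Only called genes whose groups did not overlap were taken. By that choice both Lgr5+ libraries lie above both Reg4+ DCS libraries for the 12 and below them for Zfp467, Zfp750 and Zfp862.

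The 3 Zfp genes called higher in Reg4+ DCS cells were Zfp467, Zfp750 and Zfp862. Zfp467 (chromosome 6, 48427697 to 48445825), a factor with 12 fingers known to favour the adipocyte over the osteoblast fate of stromal progenitors, stood at 33.9 and 48.8 RPM in Reg4+ DCS and 17.9 and 19.7 RPM in Lgr5+ libraries. The Lgr5+ libraries were close together and both Reg4+ DCS libraries lay above them, 2.20-fold by the means (log2 fold change 1.08, SE 0.29, adjusted p = 0.0228). Zfp750 (chromosome 11, 121510978 to 121519333), the regulator of terminal differentiation in the epidermis downstream of p63, stood at 15.5 and 20.2 RPM against 6.72 and 8.04 RPM (log2 fold change 1.16, SE 0.31, adjusted p = 0.0231). Zfp862 (chromosome 6, 48504337 to 48534832), which GENCODE lists as the pseudogene Zfp862-ps, stood at 9.84 and 18.0 RPM against 4.99 and 5.66 RPM, a 2.61-fold difference (log2 fold change 1.18, SE 0.37, adjusted p = 0.0385). Both Zfp750 and Zfp862 had their groups apart, with the wider spread in Reg4+ DCS cells.

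These 3 calls held under median-of-ratios scaling, which moves genes at large toward Reg4+ DCS cells, and by edgeR. Each was lost without Reg4+ DCS replicate 2, with an adjusted p of 0.0949 for Zfp467, 0.0883 for Zfp750 and 0.156 for Zfp862. Without Lgr5+ replicate 1 the values were 0.0505, 0.0784 and 0.0938. Zfp750 was also lost without Reg4+ DCS replicate 1 (0.0606), and Zfp862 without Lgr5+ replicate 2 (0.0645) and with no filter on low values (0.0774).

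The Zfp36 family of decay factors held the most abundant members. Zfp36l1 (chromosome 12, 80107754 to 80113013) stood at 724 and 1096 RPM in Reg4+ DCS and 577 and 677 RPM in Lgr5+ libraries. Zfp36 (chromosome 7, 28376784 to 28380253), the protein tristetraprolin that destabilises cytokine messages, stood at 597 and 531 RPM against 435 and 296 RPM. Zfp36l2 (chromosome 17, 84183931 to 84187947) stood at 70.2 and 124.6 RPM against 206.9 and 299.8 RPM. For Zfp36 and Zfp36l1 both Reg4+ DCS libraries lay above both Lgr5+ libraries, and for Zfp36l2 both lay below.

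By limma Zfp36l2 was called higher in Lgr5+ cells, 2.60-fold (log2 fold change −1.40, SE 0.32, adjusted p = 0.0132), while Zfp36 (0.65, SE 0.26, adjusted p = 0.0830) and Zfp36l1 (0.51, SE 0.27, adjusted p = 0.175) did not pass. These calls depended on the scaling. Under median-of-ratios scaling Zfp36 (log2 fold change 1.16, adjusted p = 0.0143) and Zfp36l1 (1.02, adjusted p = 0.0211) were called higher in Reg4+ DCS cells, and Zfp36l2 (−0.90, adjusted p = 0.0503) no longer passed. By edgeR all 3 passed, with an adjusted p of 0.0252 for Zfp36, 0.0443 for Zfp36l1 and 0.0480 for Zfp36l2. Without Reg4+ DCS replicate 1 the adjusted p of Zfp36l2 was 0.0945, and without Lgr5+ replicate 1 that of Zfp36 was 0.0283. The summed RPM of the 3 genes was 1391 and 1752 in Reg4+ DCS and 1219 and 1272 in Lgr5+ libraries. Zfp36l3, another family gene, was not analysed here.

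A list of 22 tested genes held the CCR4-NOT deadenylase, decapping factors, their recruiters and the kinase Mapkapk2. Of the 22, 2 were called in each direction (9.09% each). Among all genes 26.9% were called higher in Lgr5+ and 7.18% higher in Reg4+ DCS cells. The median log2 fold change of the list was −0.13, where that of all genes was −0.47. Btg2, an antiproliferative protein that recruits the deadenylase, stood at 700 and 705 RPM in Reg4+ DCS and 257 and 211 RPM in Lgr5+ libraries (log2 fold change 1.59, adjusted p = 0.00176). Its relative Tob1 stood at 189 and 258 RPM against 124 and 90.1 RPM (1.06, adjusted p = 0.0183), and lost its call without Reg4+ DCS replicate 2 (0.0922) and without Lgr5+ replicate 2 (0.0612). Both had their Reg4+ DCS libraries above their Lgr5+ libraries, the Btg2 pair nearly level. The subunit Rqcd1 (log2 fold change −1.11, adjusted p = 0.0119) and the scaffold Cnot1 (−0.80, adjusted p = 0.0346) were called higher in Lgr5+ cells. Both calls were lost under median-of-ratios scaling (Rqcd1 at 0.123, Cnot1 at 0.335). Rqcd1 was also lost without Reg4+ DCS replicate 2 (0.0535). Cnot1 was lost by edgeR (0.238), with no variance trend (0.0577) and without Reg4+ DCS replicate 1 (0.170), Lgr5+ replicate 1 (0.0560) or Lgr5+ replicate 2 (0.129).

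Among Zfp proteins that act on RNA, the ribosome or the spindle, 8 of 9 in the table were tested, 2 were called higher in Lgr5+ and 0 higher in Reg4+ DCS cells by limma (25% and 0%, where 26.9% and 7.18% of all genes were). At an unadjusted p under 0.05 the counts were 3 and 0 (37.8% and 9.43% of all genes), and by edgeR 1 and 0 (13.4% and 13.7% of all). The median was −0.47, as over all genes. The 2 were Zfp326, given above, and Zfp207 (BuGZ), which loads the checkpoint protein Bub3 onto kinetochores. Zfp207 stood at 50.9 and 58.1 RPM in Reg4+ DCS and 90.1 and 104.5 RPM in Lgr5+ libraries (log2 fold change −0.82, SE 0.23, limma adjusted p = 0.0282). Its groups were apart, but it did not pass under median-of-ratios scaling (adjusted p = 0.306), by edgeR (0.336) and without Reg4+ DCS replicate 1 (0.127), Reg4+ DCS replicate 2 (0.0568) or Lgr5+ replicate 2 (0.132).

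Zfp598, the ubiquitin ligase that marks collided ribosomes, stood at 121 and 160 RPM in Reg4+ DCS and 222 and 203 RPM in Lgr5+ libraries (log2 fold change −0.61, adjusted p = 0.0757). The groups did not overlap, but the difference did not pass. Zfp622, a maturation factor of the large ribosomal subunit, stood at 139 and 141 RPM against 188 and 166 RPM (−0.33, adjusted p = 0.251), and Zfp593, an export factor of that subunit, at 40.5 and 69.4 RPM against 44.0 and 44.5 RPM (0.26, adjusted p = 0.525). The Zfp593 groups overlapped. Zfp346, a binder of double-stranded RNA, stood at 1.43 and 6.96 RPM against 6.72 and 11.9 RPM (−1.18, adjusted p = 0.133), with overlapping groups, and was called without Reg4+ DCS replicate 2 (0.0288). Zfp106, an RNA-binding protein of motor neurons and muscle (−0.29), and Zfp830, a splicing factor (−0.24), did not pass either. Zfp385a was below the filter, at 0.0905 and 0.333 RPM in Reg4+ DCS and listed at 0 in both Lgr5+ libraries, and Zfp638 was not analysed here.

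Of 12 tested genes of the ribosome collision response, in which Zfp598 acts, 3 were called higher in Lgr5+ and 0 higher in Reg4+ DCS cells by limma (25% and 0%, where 26.9% and 7.18% of all genes were), with a median of −0.36 where that of all genes was −0.47. The counts were 4 and 0 at an unadjusted p under 0.05 (37.8% and 9.43% of all genes), and 0 and 0 by edgeR (13.4% and 13.7% of all). Those called by limma were Ascc1 (−0.90, adjusted p = 0.0289) and Ascc2 (−0.89, adjusted p = 0.0364), parts of the complex that splits collided ribosomes, and Gnb2l1 (−0.83, adjusted p = 0.0497), the ribosomal scaffold Rack1. Ascc3 (−0.02, adjusted p = 0.966) and Trip4 (0.16, adjusted p = 0.598), of the same list, did not pass by limma. All 3 limma calls were lost under median-of-ratios scaling (at 0.285, 0.276 and 0.470). With that scaling 0 of the list were called higher in Lgr5+ cells (12.7% of all genes were). Toward Reg4+ DCS cells 1 was called, Trip4 (adjusted p = 0.0465, where 15.6% of all genes were called). Without Reg4+ DCS replicate 1 the adjusted p was 0.0680, 0.121 and 0.323 for Ascc1, Ascc2 and Gnb2l1, and without Reg4+ DCS replicate 2 it was 0.0919, 0.0764 and 0.117. Without Lgr5+ replicate 2 it was 0.122, 0.181 and 0.142, and without Lgr5+ replicate 1 Ascc1 (0.0501) and Ascc2 (0.0542) were also lost.

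Of the 8 most abundant Zfp genes, Zfp706, Zfp710, Zfp598, Zfp622 and, of the decay factors, Zfp36l1 and Zfp36 were not called by limma on the RPM scale. Zfp706, a small protein with 1 finger, stood at 261, 252, 263 and 265 RPM in Reg4+ DCS replicates 1 and 2 and Lgr5+ replicates 1 and 2 (log2 fold change −0.04, SE 0.21, adjusted p = 0.894). It was nearly level on the RPM scale and at 0.47 under median-of-ratios scaling (adjusted p = 0.153). Of the 50-base words in the last 500 bases of its transcripts 38.6% occur in another gene too, so its level and its rank are uncertain. Zfp710, with 11 fingers, stood at 287 and 179 RPM in Reg4+ DCS and 253 and 167 RPM in Lgr5+ libraries (0.14, SE 0.31, adjusted p = 0.742), so that replicate 1 was higher than replicate 2 in both populations. The 8 most abundant Zfp genes were Zfp36l1, Zfp36, Zfp706, Zfp710, Zfp598, Zfp36l2, Zfp622 and Zfp703, by mean RPM. Zfp36l1 stood above the others in every library. Zfp36 came second in all but Lgr5+ replicate 2, where Zfp36l2 was as high. Neighbours further down this order, such as Zfp706 and Zfp710 or Zfp598 and Zfp36l2, overlapped across libraries. CEL-seq counts 3′ ends, so these levels do not scale with transcript length.

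Of 15 tested transcription regulators without a KRAB box, 5 were called higher in Lgr5+ and 1 higher in Reg4+ DCS cells (33.3% and 6.67%, where 26.9% and 7.18% of all genes were), and the median was −0.61. The 5 were Zfp503, Zfp703, Zfp462, Zfp367 and Zfp219, and the 1 was Zfp750. Zfp219, a partner of Sox9 in cartilage, stood at 11.96 and 19.3 RPM in Reg4+ DCS and 41.9 and 32.8 RPM in Lgr5+ libraries (log2 fold change −1.23, SE 0.32, limma adjusted p = 0.0208). Its groups were apart, and it did not pass under median-of-ratios scaling (adjusted p = 0.0664), by edgeR (0.0653) and without Reg4+ DCS replicate 1 (0.109) or Lgr5+ replicate 1 (0.0589). Under median-of-ratios scaling 4 of this list were called higher in Lgr5+ cells (26.7%, where 12.7% of all genes were). Toward Reg4+ DCS cells 1 was called (6.67%, where 15.6% of all were). By edgeR the counts were also 4 and 1 (13.4% and 13.7% of all). The median of the list was −0.40 without Reg4+ DCS replicate 1 and −0.77 without Reg4+ DCS replicate 2. It was −0.54 without either Lgr5+ library.

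The 9 others did not pass. Zfp217, an oncoprotein that works with the CoREST corepressor, stood at 44.6 and 56.2 RPM in Reg4+ DCS and 72.8 and 81.0 RPM in Lgr5+ libraries (−0.61, adjusted p = 0.0834). Zfp384 stood at 41.0 and 43.8 RPM against 60.1 and 70.8 RPM (−0.61, adjusted p = 0.0776). In both, the Lgr5+ libraries were above the Reg4+ DCS libraries without the difference passing. Zfp592 (−0.57, adjusted p = 0.121), Zfp532 (−0.67, adjusted p = 0.278) and Zfp687 (0.12, adjusted p = 0.749), which form a complex with the reader Zmynd8, had values of both signs, and none passed. Zfp335, a part of histone H3K4 methyltransferase complexes, was at −0.23, Zfp64 at −0.26, and the paralogs Zfp148 and Zfp281, which bind GC-rich promoters, at −0.20 and −0.31. Under median-of-ratios scaling Zfp335 (0.27), Zfp64 (0.24), Zfp148 (0.30) and Zfp281 (0.13) had the opposite sign, and none of these passed. Zfp423, Zfp521 and Zfp536 were not analysed here.

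**Figure D3:**
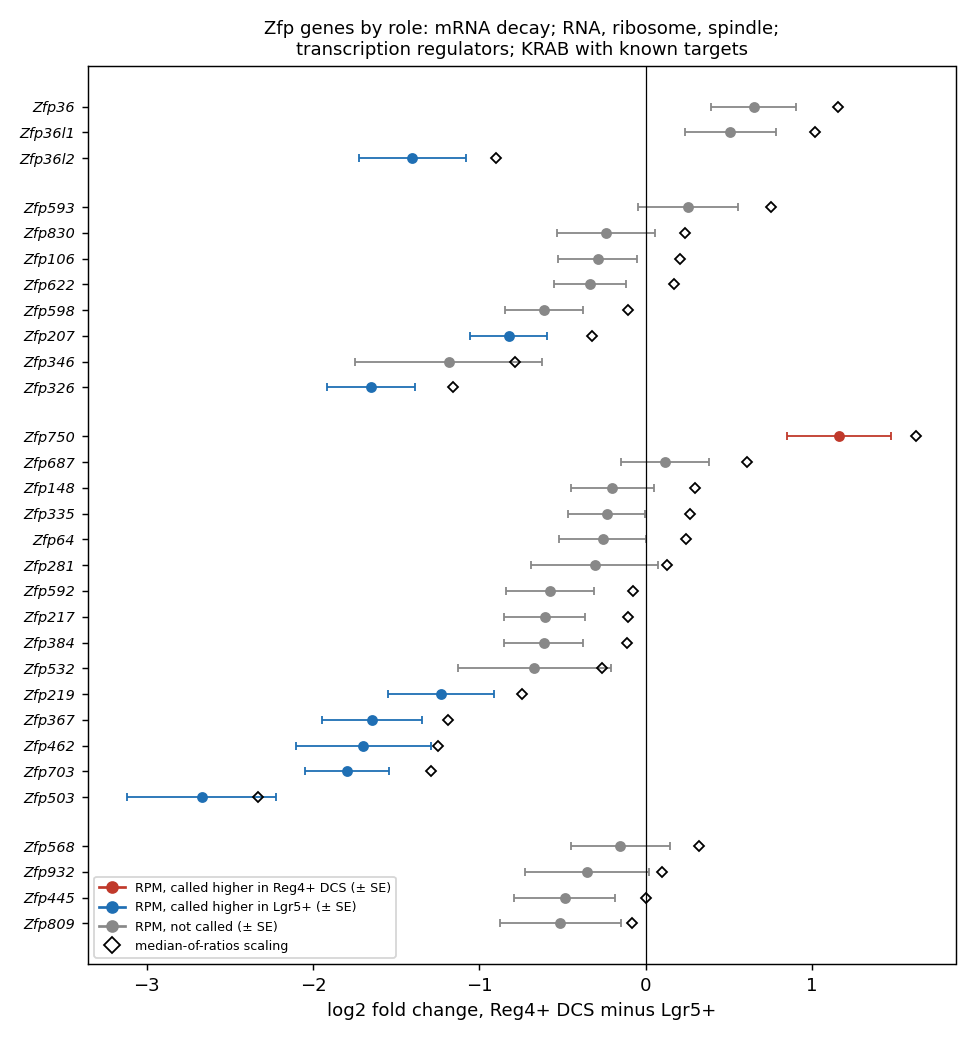
Log2 fold change (Reg4+ DCS minus Lgr5+, horizontal axis) of the tested Zfp genes of 4 role lists, from top to bottom mRNA decay, RNA with ribosome and spindle, transcription regulators without a KRAB box, and KRAB proteins with known targets. Circles with bars are values on the RPM scale ± SE, coloured where called, and diamonds are values under median-of-ratios scaling, which lie to the right of the circles by a like amount.

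The KRAB box divides the family into classes of different level. Of 183, 90 were tested, 9 were called higher in Lgr5+ and 0 higher in Reg4+ DCS cells by limma (10% and 0%, where 26.9% and 7.18% of all genes were), and the median log2 fold change was −0.49. At an unadjusted p under 0.05 the counts were 25 and 1 (37.8% and 9.43% of all genes). Of 138 protein-coding genes without one, 109 were tested, 33 were called higher in Lgr5+ and 2 higher in Reg4+ DCS cells (30.3% and 1.83%), and the median was −0.61. The median level over the 4 libraries was 9.17 RPM for tested genes with the box and 18.1 RPM for those without. That of all tested genes was 28.6 RPM, so the classes differ from it and from each other in the reads behind each test. Whether the counts differ between the classes, and the part of level in them, was not tested. The 9 were Zfp13, Zfp599, Zfp282, Zfp101, Zfp956, Zfp607, Zfp157, Zfp777 and Zfp386. Under median-of-ratios scaling 3 KRAB genes were called higher in Lgr5+ and 4 higher in Reg4+ DCS cells, with a median of −0.04 (3.33% and 4.44%, where 12.7% and 15.6% of all genes were), and by edgeR 3 and 2 (3.33% and 2.22%, where 13.4% and 13.7% of all were). Leaving out Reg4+ DCS replicate 1 gave 1 and 1 (10.6% and 3.59% of all genes), and leaving out Reg4+ DCS replicate 2 gave 11 and 0 (23% and 3.5% of all). Without Lgr5+ replicate 1 the counts were 3 and 1 (17.3% and 7.58% of all), and without Lgr5+ replicate 2 they were 6 and 0 (16.8% and 5.97% of all).

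Summed over all 183 KRAB genes, including those below the filter, the level was 844 and 1162 RPM in Reg4+ DCS and 1431 and 1403 RPM in Lgr5+ libraries. Under median-of-ratios scaling the same sums were 1100 and 1262 against 1160 and 1208, so that the groups were apart on the first scale and overlapped on the second. Over all 324 Zfp genes the sums were 4853 and 5969 RPM against 6687 and 6833 RPM. Scaled by median of ratios they were 6326 and 6482 against 5420 and 5883, the opposite order. Without the 3 Zfp36 family genes the scaled sums were 4513 and 4579 against 4431 and 4788, which overlap.

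KRAB proteins with known imprinted or retroelement targets did not differ beyond the test's threshold. Of the 5 present, 4 were tested and 0 were called with limma, with edgeR or under median-of-ratios scaling. At an unadjusted p under 0.05 in limma the count was also 0. Shares of all genes higher in Lgr5+ and in Reg4+ DCS cells were 26.9% and 7.18% by limma and 13.4% and 13.7% by edgeR. They were 12.7% and 15.6% under median-of-ratios scaling and 37.8% and 9.43% at the unadjusted p. With 4 genes, counts of 0 do not set the list apart from genes at large. All 4 log2 fold changes were negative, with a median of −0.42 where that of all genes was −0.47. Zfp445, which helps to maintain imprints, stood at 18.3 and 29.8 RPM in Reg4+ DCS and 32.1 and 34.2 RPM in Lgr5+ libraries (−0.49, SE 0.30, adjusted p = 0.238). Zfp568, which silences a placental promoter of Igf2, stood at 11.2 and 12.3 RPM against 11.9 and 14.5 RPM (−0.15, SE 0.30, adjusted p = 0.711). Zfp809, which silences proviruses, stood at 4.20 and 5.07 RPM against 9.22 and 5.28 RPM (−0.51, SE 0.37, adjusted p = 0.297). Zfp445 and Zfp809 had their Lgr5+ libraries above, and the groups of Zfp568 overlapped. Zfp932, a binder of endogenous retroviruses, was at −0.35 (adjusted p = 0.479). Zfp708, which binds a retroelement class in the germ line and early embryo, was below the filter, at 0.989 and 0.371 RPM against 2.11 and 2.39 RPM. Zfp932 and Zfp708 share more than 50% of the 50-base words in the last 500 bases of their transcripts with another gene, so reads may have been split between copies, and Zfp57 was not analysed here.

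Most of the listed corepressors that KRAB proteins recruit were higher in Lgr5+ cells on the RPM scale. All 23 listed genes in the table were tested, and 18 were called higher in Lgr5+ and 0 higher in Reg4+ DCS cells by limma (78.3%, where 26.9% of all tested genes were), with a median of −0.96. At an unadjusted p under 0.05 the counts were 20 and 0 (37.8% and 9.43% of all genes), and by edgeR 6 and 0 (26.1%, where 13.4% of all genes were higher in Lgr5+ cells). Trim28, the scaffold itself, stood at 82.3 and 106 RPM in Reg4+ DCS and 224 and 280 RPM in Lgr5+ libraries, a 2.68-fold difference (log2 fold change −1.41, SE 0.24, adjusted p = 0.00406). Its groups were well apart, and its call held in all 13 alternatives. Setdb1, the H3K9 methyltransferase, stood at 23.3 and 25.2 RPM against 51.1 and 43.6 RPM (−0.93, SE 0.25, adjusted p = 0.0245). The Setdb1 groups were also apart, but it did not pass under median-of-ratios scaling (adjusted p = 0.183), by edgeR (0.0712) and without Reg4+ DCS replicate 1 (0.0977), Reg4+ DCS replicate 2 (0.0555) or Lgr5+ replicate 1 (0.113).

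The largest differences of that list were in Uhrf1 (−1.99, adjusted p = 0.00144) and Dnmt1 (−1.84, adjusted p = 0.00589), which copy DNA methylation after replication, in the remodeler Chd3 (−1.73, adjusted p = 0.0103) and in Cbx1 (−1.70, adjusted p = 0.0321), a reader of H3K9 methylation. Dnmt1 did not pass without Reg4+ DCS replicate 1 (0.0563). Chd3 was 3.08-fold higher, and 5.19-fold without Reg4+ DCS replicate 2. Cbx1 was lost under median-of-ratios scaling (adjusted p = 0.0941), by edgeR (0.176), with no filter (0.0778) and without Reg4+ DCS replicate 1 (0.0779), Reg4+ DCS replicate 2 (0.147) or Lgr5+ replicate 1 (0.227), where its fold of 4.20 became 2.18. Under median-of-ratios scaling 6 of the 23 were called higher in Lgr5+ cells (26.1%, where 12.7% of all genes were) and 0 higher in Reg4+ DCS cells, with a median of −0.50. Leaving out Reg4+ DCS replicate 1 gave 4 higher in Lgr5+ cells (17.4%, where 10.6% of all genes were), and leaving out Reg4+ DCS replicate 2 gave 10 (43.5%, where 23% were). The loss of Lgr5+ replicate 1 gave 9 (40.9%, where 17.3% were) and that of Lgr5+ replicate 2 gave 13 (59.1%, where 16.8% were), and in each of these 4 fits 0 were called higher in Reg4+ DCS cells. The proliferation markers given above moved the same way, and their part in these values was not tested.

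**Figure D4:**
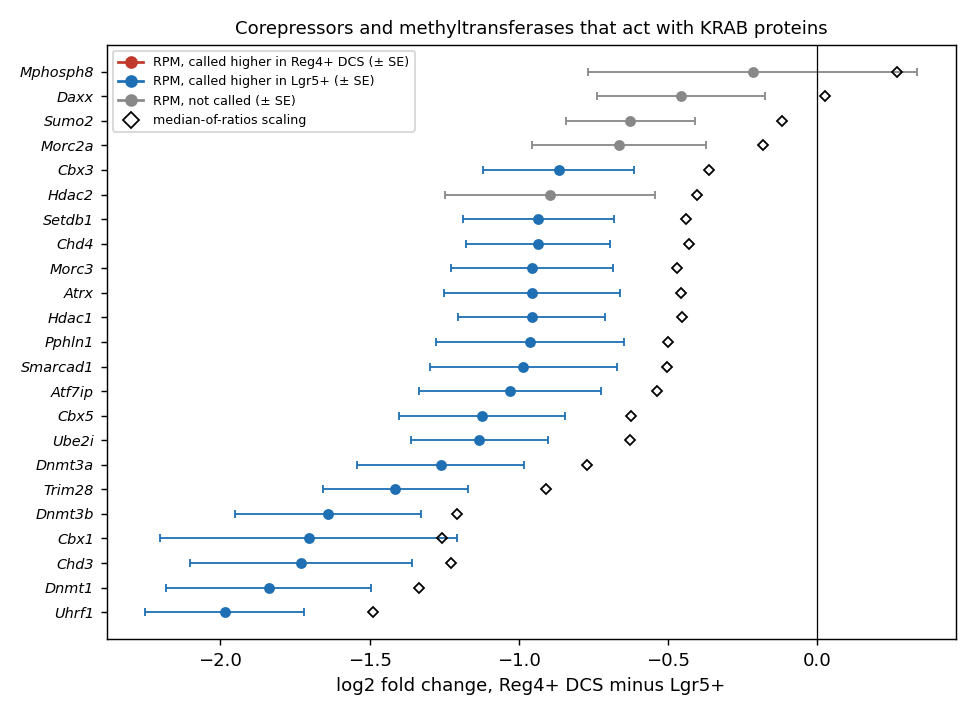
Log2 fold change (Reg4+ DCS minus Lgr5+, horizontal axis) of 23 genes that act with KRAB proteins in silencing. Circles with bars are values on the RPM scale ± SE, blue where called higher in Lgr5+ cells and grey where not called, and diamonds are values under median-of-ratios scaling. All 23 circles lie below 0, from −1.99 for Uhrf1 to −0.21 for Mphosph8, and the diamonds of Mphosph8 and Daxx lie above 0.

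The counts by number of fingers stand beside 26.9% of all tested genes called higher in Lgr5+ and 7.18% higher in Reg4+ DCS cells, with a median of −0.47, and their differences were not tested. Of 45 tested genes with 0 to 4 C2H2 fingers 17 were called higher in Lgr5+ (37.8%) and 1 higher in Reg4+ DCS cells (median −0.79), and of 67 with 5 to 9 fingers 15 (22.4%) and 0 (median −0.56). Of 57 with 10 to 14 fingers 3 (5.26%) and 1 were called (median −0.48), and of 30 with 15 or more 7 (23.3%) and 0 (median −0.62). The median level fell along the first 3 of these classes, from 24.7 to 14.4 and 8.93 RPM, and was 10.97 RPM in the last. Across 199 tested genes with a protein the number of fingers and the log2 fold change had a Spearman's rho of 0.06, a description across genes that share the 4 libraries. A SCAN box is a domain by which such proteins pair. Of 9 tested genes with the box, 3 were called higher in Lgr5+ (33.3%) and 0 higher in Reg4+ DCS cells (median −0.49). At an unadjusted p under 0.05 in limma the counts were 4 and 0 (37.8% and 9.43% of all genes). In either direction 0 were called under median-of-ratios scaling (12.7% and 15.6% of all genes) or by edgeR (13.4% and 13.7% of all).

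Other zinc finger families had these values, again beside 26.9% and 7.18% of all genes. Zbtb proteins join fingers to a BTB domain. Of 30 tested Zbtb genes, 4 were called higher in Lgr5+ (13.3%) and 0 higher in Reg4+ DCS cells by limma, with a median of −0.16. The Zbtb counts were 7 and 1 at an unadjusted p under 0.05 (37.8% and 9.43% of all genes), and 1 and 1 by edgeR (13.4% and 13.7% of all). Of 11 Zscan and Zkscan genes 2 (18.2%) and 0 were called (median −0.74), and of 15 Zc3h genes, which hold CCCH fingers, 1 and 1 (6.67% each, median −0.47). Whether the Zfp genes differ from these families was not tested.

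By position, 79 of the 324 Zfp genes lie on chromosome 7, 42 on chromosome 17 and 31 on chromosome 13. Of these 44, 26 and 12 were tested. On chromosome 7 there were 10 genes called higher in Lgr5+ (22.7%, where 26.9% of all genes were) and 0 higher in Reg4+ DCS cells (7.18% of all), with a median of −0.47. On chromosome 17 there were 4 (15.4%) and 0 (median −0.61), and on chromosome 13 there was 1 (8.33%) and 0 (median −0.56). Chromosome 6 held 2 of the 3 genes called higher in Reg4+ DCS cells, Zfp467 and Zfp862, beside 4 called higher in Lgr5+ cells (28.6%) of 14 tested.

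Among the low Zfp genes, 17 had a listed value of 0 in each Reg4+ DCS library and 0 in only 1 of them, while 2, Zfp385a and Zfp449, were listed at 0 in both Lgr5+ libraries. None of these reached the filter. A further 31 genes were at 0 in the second part of both Reg4+ DCS columns and 4 in the first part of both, and 0 were at 0 in a part of only 1 column. These zeros are given as listed, with no fold. Of the 200 tested genes only Zfp503 was affected. Sequence shared between copies touched few called genes. Of 321 Zfp genes with a protein, 274 share none of the 50-base words in the last 500 bases of their transcripts with another gene. A further 8 share more than 50%, 5 of them tested. Among the 45 called genes only Zfp414 was found to share more than 2%, and the pseudogene Zfp862, with no protein, was not scored. For Zfp414 the share was 47.5%, and its call (log2 fold change −0.87, adjusted p = 0.0434) is uncertain for that reason.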

How the data were processed

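The authors deposited 1 table of RPM values for 14519 genes in 4 library columns. Per the submitters' processing notes, BWA 0.6.2-r126 and the build mm10 were used. The sources used here do not give the counting step, the annotation, strand use or molecular identifiers, and RPM values without identifiers would include amplified copies. RPM is relative to all reads of a column, so abundant transcripts lower the others.

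Differences were tested by limma 3.58.1 under R 4.3.3 (eBayes with trend=TRUE) on log2(RPM + 1), computed from the deposited RPM, for genes of at least 5 RPM in at least 2 libraries. The model held group alone, with a Benjamini-Hochberg adjustment over all 10183 genes. This scale understates the change of low genes, and the p-values rest on 2 libraries per group with the spread drawn toward that of other genes. Where 1 library is left out, the spread comes from the other population's 2 libraries and from other genes. Folds are ratios of mean RPM. Whole reads were recovered from the RPM steps within 0.01 reads for 100% of values in the Lgr5+ columns. Those of the Reg4+ DCS columns were decoded as sums of 2 parts for 99.9% and 98.6% of genes, with 18 and 203 genes not unique. These reads were tested with edgeR 4.0.16 (quasi-likelihood, TMM). The fits and the decoding were also run on simulated data with known answers.

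Other settings were pseudocounts of 0.5 and 5, a filter of 1 RPM, no filter, median-of-ratios scaling, no variance trend, the replicate number as a block and each library left out. After the data were seen, edgeR and the omission of parts at 0 were added, making 13 in all. KRAB boxes were counted at 7 of 15 fixed residues and SCAN boxes at 8 of 13, in proteins translated from GENCODE M21 transcripts, the source of all printed sequences and coordinates.

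Named genes were up to 12 per direction with the largest called difference and groups apart, the 8 most abundant, all members of 4 role lists and, of 3 partner lists, up to 4 called per direction with Trim28, Setdb1 and Cnot1. The Zfp genes and all lists were chosen with earlier results of these data known. Of the tuft cell markers, 1 listed gene is not reported here.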

Additional observations from a re-analysis of the deposited data

How the results depend on the processing

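Calls of Zfp genes depended most on the scaling and on Reg4+ DCS replicate 1. Pseudocounts, filters and the variance trend gave 42 to 48 Zfp genes higher in Lgr5+ and 2 or 3 higher in Reg4+ DCS cells. These totals do not hold the same genes throughout. The filter of 1 RPM tested 289 Zfp genes and kept 33 of the 42 calls toward Lgr5+ cells. With no filter 324 were tested and 21 of the 42 kept, and with no variance trend 37 were kept. Of all genes, 3196 of 12244 were called higher in Lgr5+ cells with the filter of 1 RPM and 3084 of 14518 with no filter. Median-of-ratios scaling gave 11 and 10, a median of −0.084 for Zfp genes, −0.039 for KRAB genes and 0.017 for all genes, which turned the sign of the last, and a ratio of summed Zfp levels (Reg4+ DCS over Lgr5+) of 1.13 in place of 0.80. The edgeR test gave 12 and 8, and medians of −0.15, −0.066 and −0.034. Leaving out 1 library gave 8 to 36 higher in Lgr5+ and 0 to 3 higher in Reg4+ DCS cells, medians from −0.73 to −0.38 for Zfp genes, −0.71 to −0.32 for KRAB genes and −0.61 to −0.35 for all genes, and a ratio of sums from 0.72 to 0.88. The cause was not tested. Of 55 named results 0 turned direction while called. Among those not called, 11 changed sign under median-of-ratios scaling and 11 by edgeR.

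The replicate block gave 59 calls higher in Lgr5+ (29.5%, where 34.7% of all genes were) and 5 higher in Reg4+ DCS cells (2.5%, where 8.94% of all were). The 5 included Zfp36 (limma adjusted p = 0.0190) and Zfp9 (0.00744). Deviations of same-numbered libraries correlated at 0.21 over 10183 genes, but 2 pairs cannot show that the numbers pair the libraries.

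Depth limits the lowest genes: Zfp503 rests on 6 reads in each Reg4+ DCS library.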

Other observations

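Zfp773, a KRAB gene with 8 fingers, had the widest disagreement between libraries of 1 population among the genes named here. It was chosen after its values were seen. Its values were 3.03 and 65.0 RPM in Reg4+ DCS and 12.7 and 9.43 RPM in Lgr5+ libraries (log2 fold change 0.45, SE 1.05, limma adjusted p = 0.758). The Lgr5+ values lay between the Reg4+ DCS values. Without Reg4+ DCS replicate 1 it was called higher in Reg4+ DCS cells (2.47, adjusted p = 0.0124), and without Reg4+ DCS replicate 2 higher in Lgr5+ cells (−1.57, adjusted p = 0.0354). In each of these fits Reg4+ DCS cells have 1 library and the spread comes from the Lgr5+ pair, so neither p holds the disagreement within Reg4+ DCS cells and neither call is a finding.

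Zfp9, a KRAB gene with 12 fingers also chosen after its values were seen, had the largest positive log2 fold change of the tested Zfp genes without passing (1.25, SE 0.48, adjusted p = 0.0756). Its values were 19.99 and 20.8 RPM in Reg4+ DCS and 14.4 and 4.27 RPM in Lgr5+ libraries, and the latter differed from each other by more than the nearest libraries of the groups did. Without Lgr5+ replicate 1 its adjusted p was 0.000993, a value that sets the close Reg4+ DCS pair against 1 Lgr5+ library and holds no spread between Lgr5+ libraries. Under median-of-ratios scaling the KRAB genes Zfp9 (adjusted p = 0.0225), Zfp655 (0.0476), Zfp868 (0.0207) and Zfp948 (0.0414) were called higher in Reg4+ DCS cells, as was Zfp330 (0.0351), a gene without a KRAB box. On the RPM scale the log2 fold changes of Zfp655 (0.31), Zfp868 (0.48), Zfp948 (0.56) and Zfp330 (0.31) did not pass.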
